A study of Homo sapiens with 12 samples.

Results

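The rows described here are the well-counted rows of a gene count table whose level was at least 2 times higher after sodium arsenite than after mock treatment. A row was a member when its counts over the 6 mock libraries summed to at least 240 and its mean CPM (counts scaled to a library total of 1000000) over the 6 arsenite libraries was at least 2 times the mean CPM over the 6 mock libraries. Of 61255 rows, 4793 met the count minimum and 29 of these were members, 0.605% of the well-counted rows. The members were thus chosen by the difference between arsenite and mock libraries, so every arsenite value of a member is a description, and no p-value of that contrast is given for a member. Tests are given for differences of members among the cell lines, and for the arsenite effect on rows that are not members.

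The 12 RNA libraries came from Huh-7.5, a widely used line of human hepatocellular carcinoma cells. All cells expressed APEX2, a peroxidase used for proximity labelling, with a nuclear export signal (APEX-NES), with a nuclear localization signal (APEX-NLS) or joined to the stress granule protein G3BP1 (APEX-G3BP1), and no line without APEX2 is analysed here. Each line had 2 mock libraries and 2 libraries of cells kept in 0.5 mM sodium arsenite for 45 minutes. Whether a line was 1 clone or a pool, and whether replicates were separate cultures, is not given in the sources used here, so p-values measure the spread between these samples, which may be technical.

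Sodium arsenite binds thiols, causes oxidative stress, halts translation and makes stress granules form. It is also a classical inducer of heat shock, immediate early and oxidative stress genes. The 3′ end of an mRNA is made by cleavage a short way past a polyadenylation signal, and the polymerase goes on past that point before it stops. Heat, high salt and oxidative stress are known to lengthen such transcription past gene ends in mammalian cells, and RNA made there can reach into the next gene, including one that is read from the opposite strand. Whether this process contributed to the counts described here was not tested.

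A name in this table denotes a row, and for any single row the strand of its reads was uncertain. Most counts of matched rows lay in rows that overlap protein-coding exons on the opposite strand. A rise or fall given for a name is that of its row, and is not read as a change of the named gene. The libraries were made with a kit that keeps the strand, while how strand was treated when reads were counted is not given in the sources used here. TALAM1, annotated opposite to the abundant nuclear RNA MALAT1, held 44233 to 81932 counts per library, and MALAT1 itself held 16 to 37. Rows whose exons overlap protein-coding exons on the opposite strand made up 13.1% of the 57075 rows matched to the GENCODE 29 annotation of GRCh38, but held 66.3% to 70.0% of the counts of matched rows in each library. The hepatoma identity followed the same pattern. The 18 hepatocyte marker rows summed to 179 to 348 CPM in mock and 254 to 363 CPM in arsenite libraries with APOH at 0, while 2 rows opposite to the exons of markers, those facing APOA1 and APOB, summed to 3751 to 4937 CPM in mock and 4157 to 5756 CPM in arsenite libraries. Library totals ran from 1090308 to 1461067 counts.

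All 29 members matched GENCODE 29. Most lay within 20 kb past the 3′ end of a protein-coding gene on the opposite strand, a feature that the choice of members did not use. The last 30 bases of 5 such opposite genes are printed because they end, without reaching it, before 4 of the members with the highest ratios and before HDAC1, an example of a near end. They are from GENCODE 29 transcripts on GRCh38, 5′ to 3′ on the strand of the gene, with the polyadenylation hexamer in capitals. STARD4 ends 1147 bases before CAMK4, HMGB2 7728 bases before GALNT7, RRBP1 3759 bases before DSTN, MAP1LC3B 1467 bases before ZCCHC14 and MARCKSL1 197 bases before HDAC1, each distance read along the direction of the opposite gene.
STARD4: caaAATAAAaatttgtagacactcttaaaa
HMGB2: tttgtAATAAAattatgtatattatttcta
RRBP1: tgccATTAAAaccaacgttggtgcccggtg
MAP1LC3B: ataaaggcacaATTAAAaactgtcatcaaa
MARCKSL1: aaggAATAAAtgtcgtccctttagtggtgc
An AATAAA or ATTAAA hexamer stood in the last 50 bases of 20 of the 26 opposite genes that end within 20 kb before exon bases of a member, or 76.9%. The share was 70.6% among the 2339 genes that end in this way before any well-counted row and 71.3% among 19922 protein-coding genes, so these gene ends carried the usual signal at about the usual rate.

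The 29 members had ratios of arsenite to mock mean CPM from 2.004 to 3.97, with a median of 2.19, beside a median of 0.964 over the 4793 well-counted rows. Only 3 members had a ratio of at least 3, 6 lay from 2.5 to under 3 and 20 from 2 to under 2.5. Just inside the threshold stood SEPTIN11 (2.01), RNF146 (2.01) and TTLL3 (2.004), and just outside it ACVR2A (1.996), IMMT (1.98) and ARHGEF40 (1.98). Together the members took 0.190% to 0.210% of the counts of a mock library and 0.449% to 0.522% of those of an arsenite library. In 27 of 29 members every arsenite library lay above every mock library, which was so for 3.46% of well-counted rows; the threshold itself favours such rows, so nothing is read from that count. The exceptions were LPIN2 and SEPTIN11. The plot of CPM by library shows both groups of libraries.

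**Figure D1:**
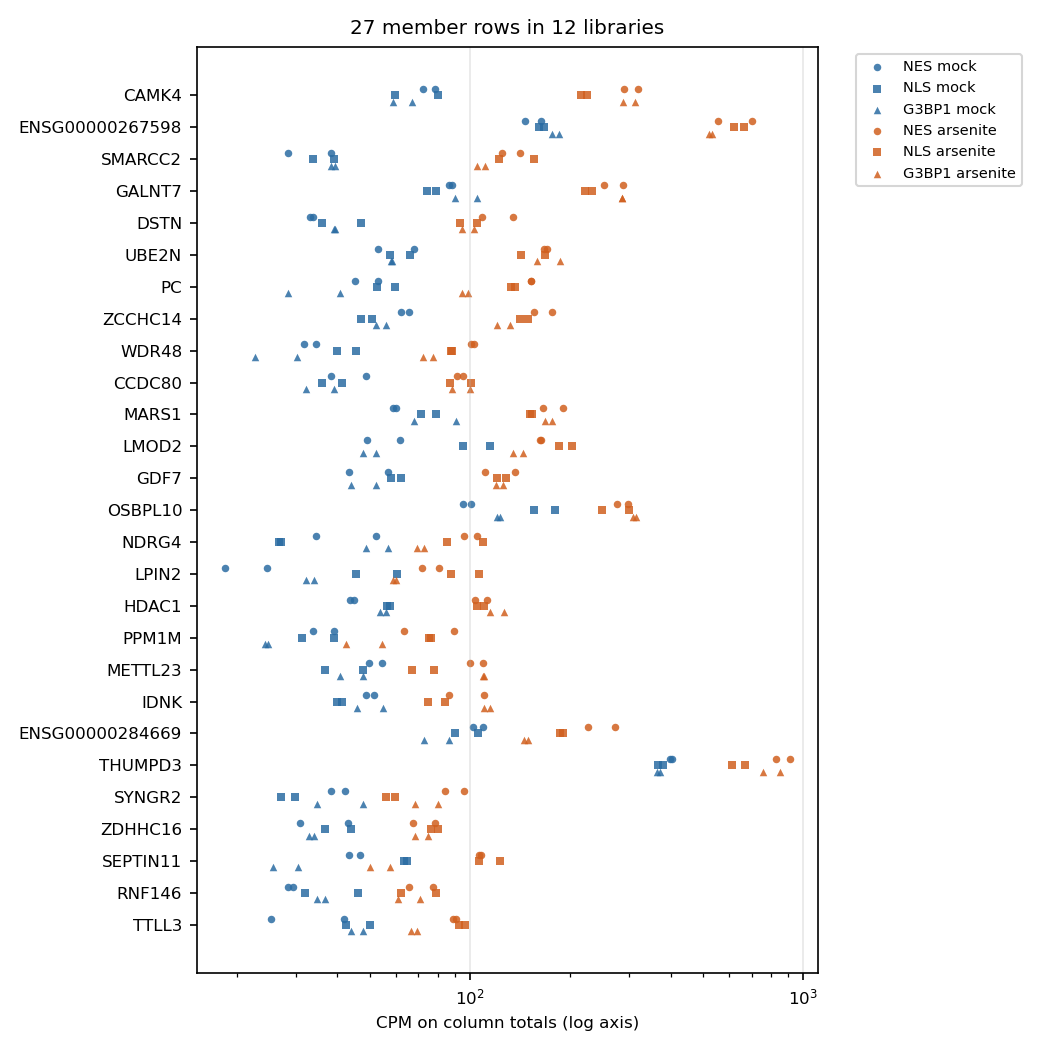
CPM on column totals (x axis, log scale) of 27 of the 29 members (y axis, ordered by ratio) in 12 libraries, with 1 point per library, blue for mock and orange for arsenite, and circles, squares and triangles for the NES, NLS and G3BP1 lines. Orange points lie right of all blue points in every drawn row except LPIN2 and SEPTIN11, and THUMPD3 and ENSG00000267598 stand furthest right.

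CAMK4, the row named for a calcium and calmodulin-dependent kinase, had the highest ratio. It lies at chr5:111223653-111494886 on the plus strand, and its neighbour STARD4, a sterol transfer protein gene on the minus strand, ends 1147 bases away and points toward it. CAMK4 measured 58.7, 69.5 and 80.0 CPM (lowest, median, highest of 6) in mock libraries and 215, 289 and 319 CPM in arsenite libraries. The groups were far apart, and the NLS arsenite libraries were the lowest of the arsenite libraries. The average log2 fold change from edgeR was 2.02 (SE 0.0752), with 2.32 in G3BP1, 2.05 in NES and 1.69 in NLS.

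A further row faces STARD4. STARD4-AS1 overlaps 124 bases of STARD4 exons on the opposite strand, and measured 1076 ± 52.9 CPM in mock and 1181 ± 91.3 CPM in arsenite libraries (SD, n = 6 each). It rose by 0.18 on the log2 scale (SE 0.040, edgeR adjusted p = 8.36e-05), a ratio of 1.10 beside 3.97 for CAMK4. The difference between the rows was not tested. STARD4's own row held 12 counts over all 12 libraries.

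Next in ratio was ENSG00000267598, one of 2 members that are not protein-coding. It lies at chr19:13153071-13154193 on the minus strand, inside an exon of IER2, an immediate early gene on the plus strand, and shares 946 bases with it. Its CPM were 146, 165 and 185 (lowest, median, highest of 6) in mock libraries and 522, 589 and 701 in arsenite libraries, and the G3BP1 arsenite libraries were the lowest of the latter. The average log2 fold change was 1.90 (SE 0.0586). The row of IER2 itself was thinly counted, with 1 to 24 counts per library, and rose from 2.68 ± 1.41 to 12.4 ± 4.13 CPM (SD, n = 6 each; fitted log2 change 2.22, SE 0.324, edgeR adjusted p = 1.00e-08). Both rows of the locus were thus higher after arsenite.

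SMARCC2, named for a subunit of the BAF chromatin remodelling complex, lies at chr12:56162983-56189567 on the minus strand. It meets the end of MYL6, a myosin light chain gene on the plus strand, with which it shares 514 exon bases. It measured 28.4, 38.2 and 39.4 CPM in mock and 105, 124 and 156 CPM in arsenite libraries (lowest, median, highest of 6), without overlap. The row of MYL6 fell from 251 ± 35.9 to 205 ± 25.1 CPM (SD, n = 6 each), by 0.24 on the log2 scale (SE 0.0583, edgeR adjusted p = 0.000521). The 2 rows of this convergent pair therefore lay on opposite sides of 0, with 1.86 (SE 0.101) for SMARCC2.

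GALNT7, which starts mucin-type sugar chains, lies at chr4:173168753-173323967 on the plus strand, and the chromatin protein gene HMGB2 ends 7728 bases beyond it. Its CPM were 74.1, 87.5 and 105 in mock and 221, 269 and 288 in arsenite libraries (lowest, median, highest of 6). GALNT7 had the most even effect of all members over the lines, with log2 fold changes of 1.67 in NES, 1.62 in G3BP1 and 1.61 in NLS.

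DSTN, the actin-depolymerizing protein destrin, lies at chr20:17569863-17609919 on the plus strand, past the end of the ribosome-binding protein gene RRBP1. It measured 33.0, 37.6 and 47.0 CPM in mock and 93.1, 104 and 134 CPM in arsenite libraries (lowest, median, highest of 6). The row of RRBP1 fell by 0.63 on the log2 scale (edgeR adjusted p = 9.61e-17), while DSTN was higher by 1.53 (SE 0.105).

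UBE2N, a ubiquitin-conjugating enzyme, overlaps the end of the plus-strand gene NUDT4 by 2474 exon bases, the widest overlap of any member with a tested opposite row. UBE2N measured 53.0, 58.0 and 67.7 CPM in mock and 142, 168 and 187 CPM in arsenite libraries (lowest, median, highest of 6). NUDT4's row differed by −0.16 on the log2 scale (SE 0.0774, edgeR adjusted p = 0.0837) and was not called.

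PC, pyruvate carboxylase, which feeds gluconeogenesis, holds the gene LRFN4 on its opposite strand and shares 621 exon bases with it. PC measured 28.4, 48.9 and 59.6 CPM in mock and 94.7, 135 and 153 CPM in arsenite libraries (lowest, median, highest of 6), with the G3BP1 libraries lowest under both treatments. LRFN4 fell from 146 ± 16.3 to 94.0 ± 14.1 CPM (SD, n = 6 each; −0.58, SE 0.0776, edgeR adjusted p = 6.41e-10). As at SMARCC2, the row of the facing gene was lower after arsenite and the member was higher.

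The remaining 3 of the 10 members with the highest log2 fold changes had no overlap between treatments. ZCCHC14, a zinc finger protein gene past the end of the autophagy gene MAP1LC3B, measured 47.0, 54.0 and 65.5 CPM in mock and 120, 145 and 176 CPM in arsenite libraries (lowest, median, highest of 6). WDR48, a partner of deubiquitinating enzymes whose last 13 exon bases overlap the Golgi gene GORASP1, measured 22.6, 33.1 and 45.5 CPM against 72.1, 88.1 and 103 CPM. CCDC80, a secreted matrix protein, lies 11217 bases past the end of SLC35A5 and measured 32.1, 38.7 and 48.6 CPM against 87.2, 93.4 and 100.6 CPM.

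Among the most counted members, THUMPD3 had the highest levels and one of the lowest ratios (2.03). It is a tRNA methyltransferase gene at chr3:9362842-9386791 on the plus strand. THUMPD3 measured 364, 375 and 404 CPM in mock and 611, 792 and 912 CPM in arsenite libraries (lowest, median, highest of 6), and its lowest arsenite values were in NLS. It was also a member without a protein-coding gene end nearby, since the nearest on the opposite strand, that of LHFPL4, was 111570 bases away. It does share 212 exon bases with the opposite-strand protein-coding gene SRGAP3. THUMPD3 shares 660 exon bases with THUMPD3-AS1, whose row differed by −0.06 on the log2 scale (SE 0.0473, edgeR adjusted p = 0.361) from 486 ± 19.3 to 452 ± 26.2 CPM (SD, n = 6 each). LHFPL4's own row rose by 1.78 (edgeR adjusted p = 2.67e-16), with 5 to 83 counts per library.

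ENSG00000284669, the other member that is not protein-coding, lies at chr3:39148281-39172952 on the plus strand. Part of it runs through introns of CSRNP1, a nuclear protein gene read from the minus strand. It measured 72.9, 96.2 and 110 CPM in mock and 145, 188 and 272 CPM in arsenite libraries (lowest, median, highest of 6), with NES highest in the arsenite group. A further row facing CSRNP1 exons, ENSG00000283849, rose from 34.3 ± 6.39 to 53.8 ± 6.19 CPM (SD, n = 6 each; fitted log2 change 0.70, SE 0.127, edgeR adjusted p = 2.54e-06).

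MARS1, the methionyl-tRNA synthetase, runs into the 3′ end of DDIT3, the stress transcription factor CHOP, and shares 355 exon bases with it. A wider overlap, of 519 exon bases, is with ARHGAP9, also on the opposite strand. The row of ARHGAP9 was not called (log2 change 0.18, SE 0.195, edgeR adjusted p = 0.490). MARS1 measured 58.9, 69.5 and 90.8 CPM in mock and 152, 167 and 191 CPM in arsenite libraries (lowest, median, highest of 6). DDIT3's own row was at 57.7 ± 12.3 and 64.5 ± 20.6 CPM (SD, n = 6 each) and was not called (log2 change 0.20, SE 0.107, edgeR adjusted p = 0.139). MBD6, which faces other exon bases of DDIT3, rose from 28.3 ± 4.31 to 40.3 ± 10.98 CPM (log2 change 0.55, SE 0.143, edgeR adjusted p = 0.000961). The member's own log2 fold change, by which it was chosen, was 1.29 (SE 0.0820).

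The other 9 members, outside the rule for naming and given by their range, had median mock levels from 32.6 (PPM1M) to 54.9 CPM (HDAC1) and median arsenite levels from 69.3 (PPM1M) to 123 CPM (GDF7). Among them were GDF7, a BMP-family growth factor, the histone deacetylase HDAC1, the phosphatase PPM1M, the methyltransferase METTL23, the gluconate kinase IDNK, the vesicle protein SYNGR2 and the palmitoyltransferase ZDHHC16. None of them had mock and arsenite libraries that overlapped. Their ratios ran from 2.02 in ZDHHC16 to 2.34 in GDF7.

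By position, 26 of 29 members (89.7%) had exon bases within 20 kb past the 3′ end of an opposite-strand protein-coding gene, beside 54.6% of the 4556 well-counted rows matched to GENCODE 29. For ends of other genes on the member's own strand the count was 8 of 29 (27.6%) beside 30.4%. Among the exceptions to the 26 were OSBPL10, 20268 bases past the end of STT3B, and THUMPD3. Within 5 kb the count was 18 (62.1%, beside 40.9%) and within 50 kb it was 27 (93.1%, beside 63.8%). These windows were chosen with the members known, and the shares are descriptions. Members were also more often protein-coding and had more exon bases than well-counted rows, as given below. No share among rows of like type and length was computed.

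Shared exon bases were counted apart from nearness. Most well-counted rows overlap exons of a gene on the other strand, 74.3% with any gene and 62.6% with a protein-coding gene, while the members did so in 13 (44.8%) and 7 (24.1%) cases. Rows with no such exon overlap but with an opposite gene end within 20 kb made up 15 of 29 members (51.7%) and 10.4% of well-counted rows. Protein-coding rows made up 27 of 29 members (93.1%) beside 51.6%. The members had a median of 6269 exon bases and 13 merged exons beside 3041.5 bases and 5.5 exons. They lay on 16 chromosomes, 8 of them on chromosome 3, which holds 6.47% of the well-counted matched rows, and 19 were on the plus strand. No member's gene neighboured that of another.

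The distances named so far belong to the ends of HMGB2, STARD4 and their like, and others were of the same order. SRSF2, a splicing factor, ends 179 bases before METTL23, ECHDC1 143 bases before RNF146, a ubiquitin ligase, and TK1, thymidine kinase, 548 bases before SYNGR2. MMS19 ends 954 bases before ZDHHC16 and EMILIN2 1001 bases before LPIN2. RPUSD3 lies inside the span of TTLL3 on the opposite strand, and ends 1534 bases before the next TTLL3 exon in its direction. Further off were WDR82 (3824 bases before PPM1M), LDAH (4769 bases before GDF7), CNOT1 (6323 bases before NDRG4), CCNI (6774 bases before SEPTIN11), UBQLN1 (15833 bases before IDNK) and WASL (17645 bases before LMOD2). The TTLL3 row, named for a tubulin glycine ligase, also overlaps the same-strand fusion gene ARPC4-TTLL3, so its counts may be split between those names. NACC1, 11930 bases before ENSG00000267598, and XIRP1, 10258 bases before ENSG00000284669, were also among the 26.

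Over all well-counted rows without opposite exon overlap, the median ratio was lower beyond 20000 bases from an opposite gene end than nearer to it. The median ratio was 1.02 in 138 rows at 1 to 1000 bases, 1.010 in 176 rows at 1001 to 5000 bases, 0.931 in 161 rows at 5001 to 20000 bases, 0.755 in 107 rows at 20001 to 50000 bases and 0.786 in 591 rows beyond that. A ratio of at least 1.5 was reached by 12.3%, 11.4%, 9.32%, 0.935% and 0.677% of these rows. The members among them numbered 5, 4, 6, 0 and 1. Measured from ends of genes on the same strand, the medians over the same distance ranges were 0.945 (34 rows), 0.906, 0.853, 0.837 and 0.850 (781 rows). A ratio of at least 1.5 was reached there by 2.94%, 4.08%, 7.2%, 5.96% and 4.48% of rows without opposite overlap. These values include the members, whose ratios the rule fixed.

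**Figure D2:**
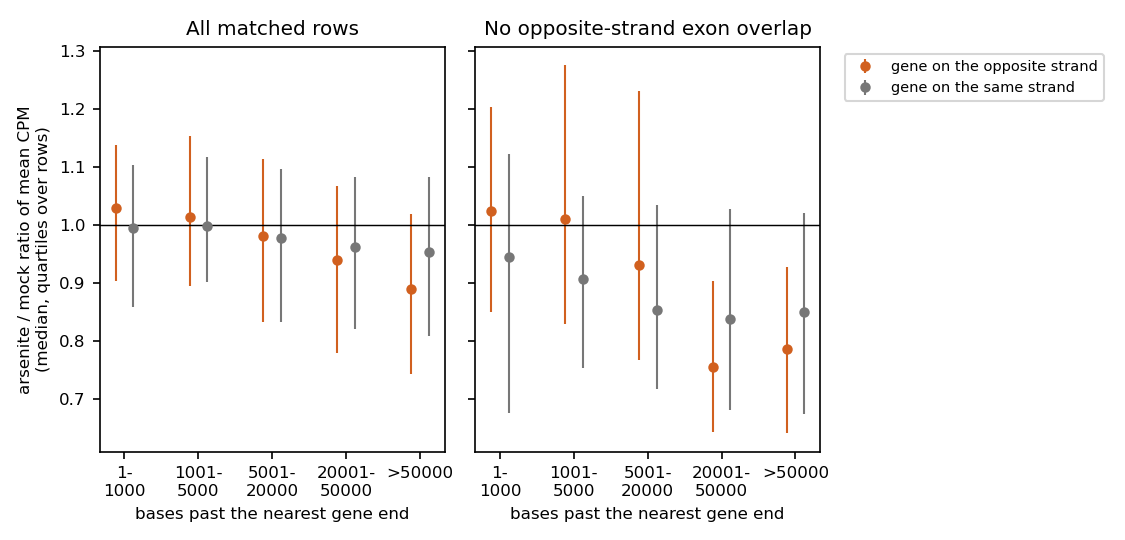
Arsenite to mock ratio of mean CPM (y axis; points are medians, bars run from the lower to the upper quartile over rows) by bases past the nearest protein-coding gene end (x axis), for well-counted rows matched to GENCODE 29, orange for ends on the opposite and grey for ends on the same strand. In rows without opposite-strand exon overlap the orange median is 1.02 nearest the end and 0.755 at 20001 to 50000 bases.

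For 12 of the opposite genes, 13 further rows overlap exons of the same gene and were tested. Their median ratio was 1.21 (range 0.843 to 4.10), and 12 of the 13 lay under the ratio of the member at that locus. Since members were chosen for a ratio of at least 2, which 0.605% of well-counted rows had, nearly any other row would lie under them, and nothing is read from that count. Of the 13, edgeR called 8 higher and 0 lower, beside 19.4% of all 13108 tested rows called higher. MFSD11, facing 1106 exon bases of SRSF2, rose from 1267 ± 182 to 1536 ± 118 CPM (SD, n = 6 each; fitted log2 change 0.34, SE 0.0395, edgeR adjusted p = 5.24e-12), a ratio of 1.21 beside 2.07 for METTL23. SETD6, facing 1086 exon bases of CNOT1, was at 900 ± 61.4 and 872 ± 95.6 CPM (edgeR adjusted p = 0.999), a ratio of 0.969 beside 2.19 for NDRG4. UBQLN1-AS1 had a ratio of 1.16 beside 2.06 for IDNK. The exception was TTC21A, facing GORASP1, with 59 counts over the mock libraries and a ratio of 4.10 beside 2.59 for WDR48.

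**Figure D3:**
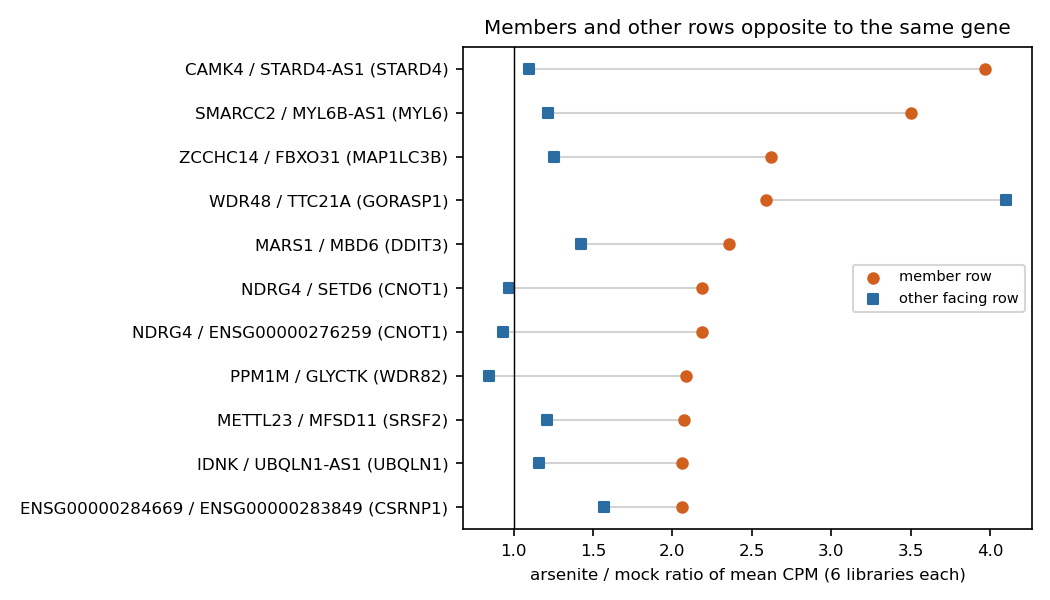
Arsenite to mock ratio of mean CPM over 6 libraries each (x axis) for members (orange circles) and for other rows opposite to exons of the same gene (blue squares), 1 pair per line with the shared gene in brackets, for 11 of the 13 pairs. The orange circles were chosen for a ratio of at least 2, and the blue squares run from 0.843 to 4.10, the highest being TTC21A.

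Rows that face the members themselves could be tested at 12 members, in 15 rows. Their median ratio was 0.930 (0.574 to 4.61), with 4 called higher, 3 lower and 8 not called by edgeR, where 19.4% of all tested rows were called higher and 18.6% lower. The 3 that fell were MYL6 and LRFN4, given above, and OSBPL10-AS1, at 28.9 ± 7.62 CPM in mock and 16.6 ± 2.92 CPM in arsenite libraries (SD, n = 6 each; fitted log2 change −0.75, SE 0.167, edgeR adjusted p = 0.000124). Among those that rose were IER2, GORASP1 and ENSG00000269886. Own rows of the opposite genes were tested in 23 cases, 8 called higher and 4 lower, with a median log2 fold change of 0.20, beside the same 19.4% and 18.6%. EMILIN2 rose by 0.73 (edgeR adjusted p = 9.97e-10) and UBQLN1, with 143 counts over all 12 libraries, by 1.10 (edgeR adjusted p = 0.000367).

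Lists of stress genes were read beside the members. No member stood on any of the 7 lists by its own name, and 2 faced listed genes, ENSG00000267598 (IER2, immediate early) and MARS1 (DDIT3, integrated stress response). Of 29 immediate early genes, 8 own rows were tested and 5 rose, with a median log2 fold change of 1.39 beside −0.01 for all tested rows. These own rows were thinly counted, with mock count sums from 12 (JUN) to 104 (KLF6). All 4 tested rows opposite to their exons rose (median 1.18), among them HOOK2, facing JUNB, by 1.55 (SE 0.136, edgeR adjusted p = 6.34e-18). Of 16 integrated stress response genes, 8 own rows were tested, 2 rose and 1 fell, and 3 of the 6 tested rows facing them rose, with median log2 changes of 0.41 and 0.28. These counts include the members on the facing side. All list counts stand beside 19.4% of tested rows called higher and 18.6% called lower.

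Among 22 heat shock genes, 6 of 10 tested own rows and 2 of 3 facing rows rose, with median log2 changes of 0.34 and 0.91. HSPD1 is counted on both sides, since its row also faces HSPE1, and its value of 0.91 is the facing median. The own row of HSPA5, a chaperone of the endoplasmic reticulum, had 55 mock counts and rose by 1.04 (edgeR adjusted p = 0.000148). Among 26 oxidative and metal response genes, 2 of 9 own rows and 6 of 12 facing rows rose, and 0 fell, with median log2 changes of −0.02 and 0.24. SQSTM1 is faced by MRNIP, with 11531 mock counts, which rose by 0.29 (edgeR adjusted p = 4.30e-10), and by MGAT4B, with 92, which rose by 1.83 (edgeR adjusted p = 4.36e-17). Of 20 genes of the transcription end machinery, 12 own rows were tested, 0 rose and 3 fell, and of 16 facing rows 7 rose and 2 fell, with medians of −0.07 and 0.22. Stress granule and translation genes had 0 of 10 own rows higher and 2 lower, with 2 of 8 facing rows higher and 1 lower and a facing median of 0.11. For nuclear long RNAs the counts were 2 higher and 1 lower of 8 own rows, and the same of 11 facing rows, with medians of 0.13 and 0.01.

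Because IER2 and DDIT3 are the listed genes that members face, the 250 bases before their starts are printed from RefSeq (GRCh38.p14), 5′ to 3′ on the strand of the gene, with motif matches in capitals. For IER2 this is chr19:13150161-13150410 and for DDIT3 chr12:57520515-57520764.
IER2: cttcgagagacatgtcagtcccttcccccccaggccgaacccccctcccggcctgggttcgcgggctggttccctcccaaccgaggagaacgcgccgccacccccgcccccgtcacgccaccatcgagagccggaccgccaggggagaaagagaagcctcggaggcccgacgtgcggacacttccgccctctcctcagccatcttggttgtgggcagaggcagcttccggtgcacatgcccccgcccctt
DDIT3: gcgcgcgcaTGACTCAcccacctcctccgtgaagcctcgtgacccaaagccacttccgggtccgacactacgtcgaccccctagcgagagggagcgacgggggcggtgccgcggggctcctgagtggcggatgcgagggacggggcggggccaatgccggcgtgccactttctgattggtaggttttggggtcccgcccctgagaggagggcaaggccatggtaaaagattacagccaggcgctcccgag
The capitals in DDIT3 mark an AP-1 motif. Motifs were searched on both strands from 250 bases before to 50 after the start, in 27305 promoters, and 23 members and 23 opposite genes had an entry. AP-1 (TGANTCA) was in 6.84% of all promoters, in those of 2 members (PC and OSBPL10) and in those of 2 opposite genes (DDIT3 and EMILIN2). CRE (TGACGTCA) was in 1.73% of all, in 0 members and in 3 opposite genes. The antioxidant element ARE (TGACNNNGC) was in 10.97% of all, in 1 member and in 6 opposite genes. CARE (TGATGCAA, 0.835% of all), the heat shock element (0.443%) and the CArG box (1.14%) were in none of either group. A match describes letters in a window only.

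Within lines, the median log2 fold change of the members was 1.35 in NES, 1.29 in G3BP1 and 1.08 in NLS, against −0.02, 0.01 and −0.01 over all tested rows. All 29 were called higher in each line and on average, beside 10.9% of tested rows in NES, 9.22% in G3BP1, 9.67% in NLS and 19.4% on average; the rule used these libraries, so nothing is read from the counts. The ratio reached 2 in 27 members in NES, 20 in G3BP1 and 17 in NLS, and in all 3 lines in 12 members (0.25% of well-counted rows did so). The largest of the 3 line effects was in NES for 16 members, in G3BP1 for 9 and in NLS for 4. By library, the median member stood at 2.67 and 2.56 times the mock mean of its line in the NES arsenite libraries, at 2.05 and 2.09 times in NLS and at 2.41 and 2.29 times in G3BP1, while the median well-counted row stood at 0.953 to 0.968 times in the 6 libraries.

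**Figure D4:**
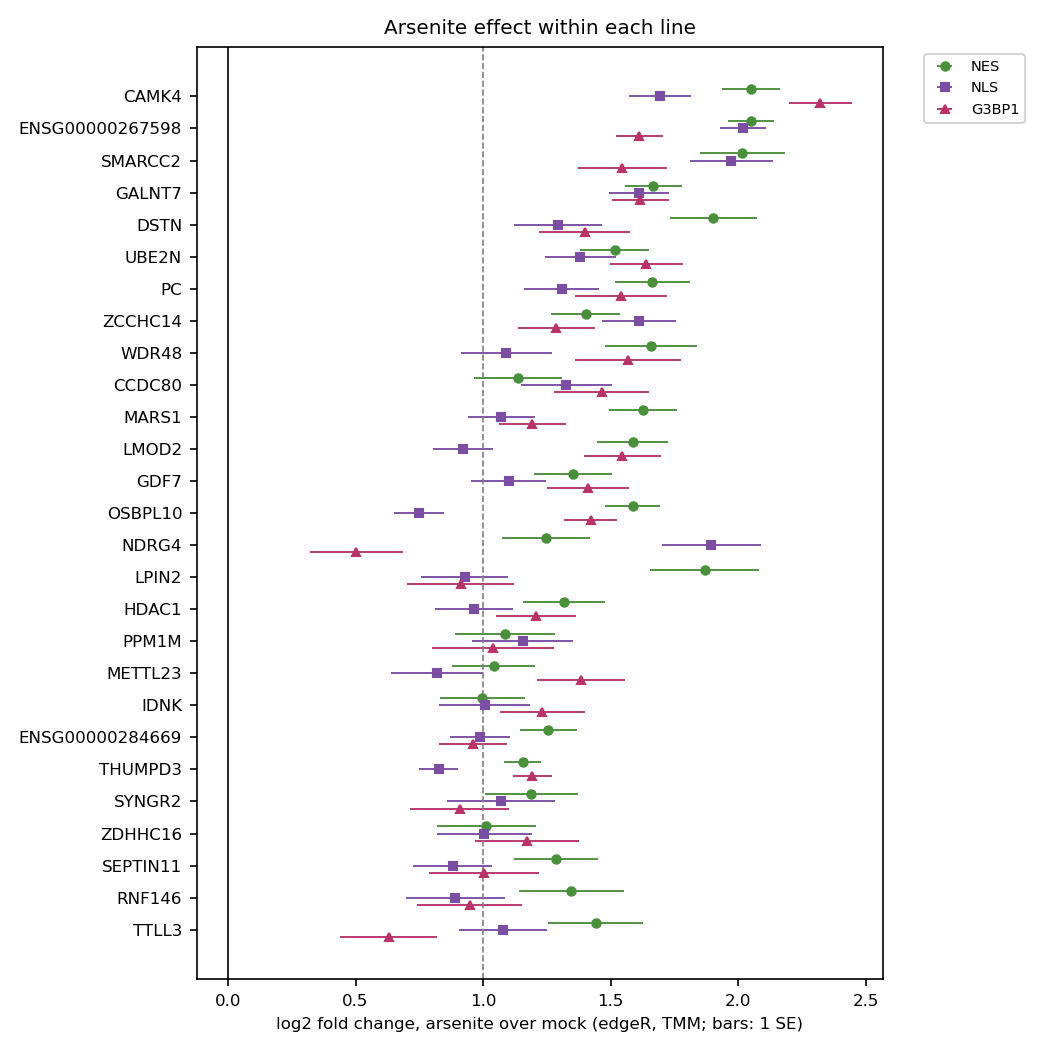
Log2 fold change of arsenite over mock (x axis; edgeR, bars of 1 SE) of 27 of the 29 members (y axis) in the NES (green circles), NLS (purple squares) and G3BP1 lines (red triangles), with a dashed line at 1. All drawn points lie above 0, and NDRG4 has the lowest value in G3BP1 (0.50) beside 1.89 in NLS.

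The choice of members used the mean over lines and not the differences among lines, so these were tested. Both come from the same libraries, and members were chosen for a large arsenite effect. The shares of all rows given beside them are therefore not from rows of like effect, and nothing is read from that contrast. The joint edgeR test called 2 of 29 members, OSBPL10 (adjusted p = 0.000269) and NDRG4 (adjusted p = 0.00672), beside 0.183% of all tested rows and 0.334% of the well-counted ones. DESeq2 called 0 members in this test and in each of the 2 single contrasts, with 7, 4 and 5 members at an unadjusted p under 0.05, where edgeR had 10, 7 and 9. Over all tested rows the shares at that level were 1.65%, 2.27% and 1.30% by DESeq2 and 8.37%, 8.55% and 6.50% by edgeR. For the other 27 members a difference among lines was not shown at this depth, with a median SE of 0.230 for NLS against NES and 0.216 for G3BP1 against the mean of the others.

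OSBPL10, an oxysterol-binding protein relative that carries lipids, lies at chr3:31657890-32077580 on the minus strand. Its mock CPM were 156 and 180 in NLS, 120 and 123 in G3BP1 and 100.9 and 95.2 in NES. Its arsenite CPM were 300 and 249 in NLS, 314 and 308 in G3BP1 and 298 and 276 in NES. The mock levels of the 3 lines did not overlap, while the arsenite levels of NES and NLS did. The log2 fold change was 1.59 in NES, 1.42 in G3BP1 and 0.75 in NLS, and the difference of NLS from NES was −0.84 (SE 0.149, edgeR adjusted p = 0.000953), the only member among 0.0153% of tested rows (0.0417% of well-counted ones) called in that contrast. Without NLS mock replicate 2 it was −0.74 (adjusted p = 0.0983), and the joint test gave 0.0508.

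NDRG4, a cytoplasmic protein gene of nerve and heart, lies at chr16:58462846-58513628 on the plus strand, past the end of CNOT1, the scaffold of a deadenylase complex. Its mock CPM were 56.9 and 48.6 in G3BP1, 34.6 and 52.2 in NES and 27.1 and 26.7 in NLS. Its arsenite CPM were 69.4 and 72.8 in G3BP1, 96.1 and 105 in NES and 109 and 85.6 in NLS. The G3BP1 libraries were lowest after arsenite, and in mock they were highest together with 1 NES library. The log2 fold change was 1.89 in NLS, 1.25 in NES and 0.50 in G3BP1, and the difference of G3BP1 from the mean of the others was −1.07 (SE 0.231, edgeR adjusted p = 0.00757), where 0.153% of tested rows were called. The edgeR adjusted p was 0.0674 without NES mock replicate 1 and 0.264 without G3BP1 mock replicate 1. In the joint test it was 0.0788 without NLS arsenite replicate 1 and 0.120 without G3BP1 mock replicate 1.

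In the contrast of NLS with NES, 23 of 29 members had a negative difference (median −0.25), beside 46.5% of well-counted rows (median 0.02). For G3BP1 against the others 15 were negative (median −0.02), beside 43.1%. The members share libraries, so this count is a description.

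In mock libraries, 6 members differed between G3BP1 and the mean of NES and NLS by edgeR, beside 18.9% of tested and 32.9% of well-counted rows, and 4 differed between NLS and NES, beside 6.92% and 12.1%. By DESeq2 the counts were 2 and 3. SEPTIN11, a septin of the cytoskeleton, was lower in G3BP1, with 25.7 and 30.4 CPM there, 43.4 and 46.8 in NES and 64.5 and 63.5 in NLS (log2 difference −0.84, SE 0.194, edgeR adjusted p = 0.000402). After arsenite SEPTIN11 stayed lowest in G3BP1, at 57.5 and 50.2 CPM, beside 108 and 107 in NES and 123 and 106 in NLS. Its mock and arsenite values overlapped across lines and not within any line.

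The other mock differences from NES and NLS were smaller. NDRG4 was higher in G3BP1 (0.71, edgeR adjusted p = 0.00187), and at 0.61 was not called without G3BP1 mock replicate 1. For NDRG4 1 NES library (52.2 CPM) lay between the G3BP1 values (48.6 and 56.9 CPM), and NLS was lowest (27.1 and 26.7 CPM). LMOD2, an actin filament nucleator of heart muscle, was lower (−0.53, edgeR adjusted p = 0.00671, with 0.0587 by DESeq2). It was not called without NES mock replicate 1 (−0.44) or without G3BP1 mock replicate 1 (−0.45). LMOD2 mock CPM were 47.7 and 52.1 in G3BP1, 61.8 and 49.1 in NES and 95.6 and 115 in NLS. The G3BP1 and NES values of LMOD2 thus overlapped. The remaining 3 of the 6 were PC, GALNT7 and ENSG00000267598, which lost the call under 5, 8 and 7 of 17 alternatives. For PC these included leaving out NES mock replicate 1, NLS mock replicate 2 or G3BP1 mock replicate 1 (edgeR adjusted p of 0.111, 0.0973 and 0.540). For GALNT7 they included leaving out any NES or NLS mock library or G3BP1 mock replicate 2 (edgeR adjusted p of 0.0540 to 0.530). For ENSG00000267598 they included leaving out NES mock replicate 2, NLS mock replicate 2 or either G3BP1 mock library (edgeR adjusted p of 0.0869 to 0.236).

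Between NLS and NES in mock libraries, LPIN2, a phosphatidate phosphatase, was higher in NLS, with 60.6 and 45.5 CPM beside 18.4 and 24.6 CPM (log2 difference 1.26, SE 0.229, edgeR adjusted p = 1.00e-05). LMOD2 was higher in NLS, with 95.6 and 115 CPM beside 61.8 and 49.1 CPM (0.88, SE 0.151, edgeR adjusted p = 2.13e-06), and so was OSBPL10 (0.73, SE 0.119, edgeR adjusted p = 5.15e-07). NDRG4 was lower in NLS (−0.73, SE 0.226, edgeR adjusted p = 0.0272), and this call was lost without NES mock replicate 2 (−0.39, adjusted p = 0.580) and without either NLS mock library (0.144 and 0.159). LPIN2, LMOD2 and OSBPL10 kept the call under all 17 alternatives. After arsenite LPIN2 was at 88.0 and 107 CPM in NLS, 80.8 and 71.7 CPM in NES and 59.9 and 58.7 CPM in G3BP1. The G3BP1 values lay below the highest NLS mock value, which is the overlap of treatments named above. The mock comparison and the arsenite difference of NLS and NES use the same mock libraries, so they are not independent results. The same holds for the mock difference of NDRG4 in G3BP1 and its arsenite difference in that line.

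**Figure D5:**
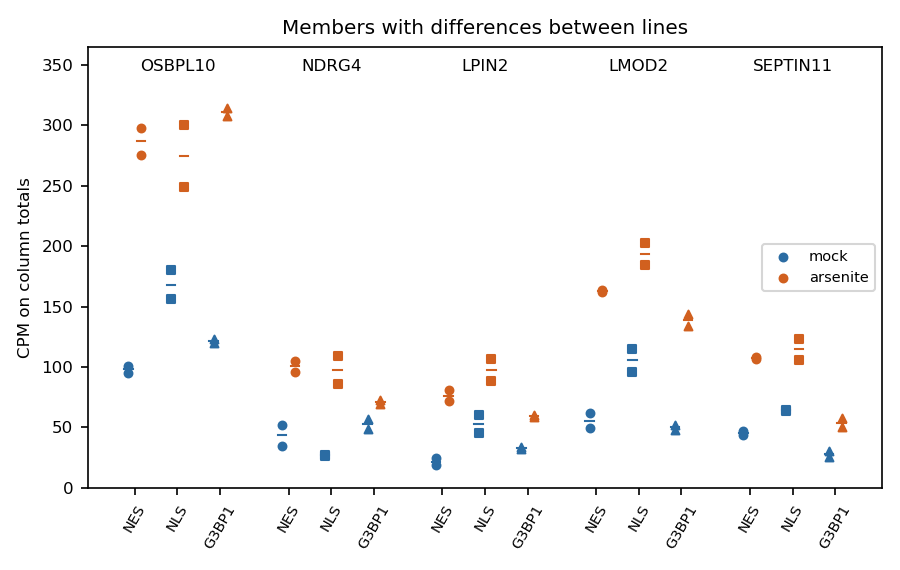
CPM on column totals (y axis) of 5 members with called differences between lines, by line (x axis), with 1 point per library and a dash at the mean of 2 libraries, blue for mock and orange for arsenite. OSBPL10 mock points are highest in NLS (156 and 180 CPM) and SEPTIN11 points are lowest in G3BP1 under both treatments.

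Markers of other cell types were read in the same libraries. Of 5 fibroblast markers LUM was at 0, and the summed CPM was 5.21 to 12.3 in mock and 28.98 to 50.8 in arsenite libraries, carried by COL3A1 (6 to 16 counts in mock and 41 to 70 in arsenite libraries; fitted log2 change 2.04, SE 0.177, edgeR adjusted p = 3.09e-18), while COL1A1, COL1A2 and DCN had at most 2 counts in any library. Of 4 endothelial markers VWF and KDR were at 0, with sums of 0 to 12.2 CPM in mock and 2.05 to 7.88 in arsenite libraries. The 4 leukocyte rows summed to 20.8 to 25.1 CPM in mock and 12.8 to 19.1 CPM in arsenite libraries, nearly all of it CD68. Rows opposite to exons of leukocyte markers, 2 in number and facing CD68 and LYZ, held more. They summed to 78.9 to 500 CPM in mock and 98.2 to 557 CPM in arsenite libraries. Fibroblast, endothelial and neuron markers had no such opposite row. The 3 neuron rows summed to 40.8 to 122 and 41.1 to 129 CPM, most of it SNAP25. Single marker rows also moved by edgeR: RBFOX3 (0 to 6 counts in mock and 6 to 15 in arsenite libraries) rose by 1.99 (adjusted p = 8.66e-05), CD68 fell by 0.60 (adjusted p = 0.00673), and of the hepatocyte rows FGB rose by 1.52 (adjusted p = 1.47e-15), APOC3 by 1.02 and AFP by 0.48 (adjusted p = 0.00364 and 0.00373). The part of these marker rows' changes in the results was not tested. In bulk RNA, more cells with an RNA and more RNA per cell cannot be told apart.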

How the data were processed

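Gene counts of 12 libraries (3 lines, 2 treatments, 2 replicates each) were analysed. The authors deposited raw counts per gene, taken as counts because all values are whole and column totals differ. Per the submitters' processing notes, Trim Galore, Subread, featureCounts and edgeR were used with GRCh38.p13. Their versions, the strand setting and the gene annotation are not given in the sources used here. A further 4 columns matched no sample and were not used.

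CPM was computed on column totals (1090308 to 1461067 counts). EdgeR 4.0.16 in R 4.3.3 was fitted to all rows passing filterByExpr (minimum count 10, minimum total 15; 13108 rows), with TMM scaling, quasi-likelihood F tests and Benjamini-Hochberg adjustment over these rows, called at an adjusted p under 0.05. The average effect used line and treatment (8 residual degrees of freedom), and line effects, their differences and mock contrasts used 1 mean per group (6). The fits were tested on simulated data first. Alternatives were DESeq2 1.42.0, other scalings, no filter, a replicate block, other thresholds of the rule and leaving out each library. Positions came from GENCODE 29 (GRCh38), promoters from RefSeq (GRCh38.p14).

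The members, lists and windows were chosen with earlier results of these data known. Members named with values were the 10 with the largest log2 fold change, the 10 with the highest CPM, those called in tests among lines, those facing a listed gene and those next to the threshold. Counts limit precision: the least counted member had 241 counts over 6 mock libraries. Results of 2 members enter the counts and medians and are not reported here one by one.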

Additional observations from a re-analysis of the deposited data

Results flagged for a closer look

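The arsenite effect on 2 members differed between lines by a direct test of the difference. For NDRG4 the log2 effect in G3BP1 minus the mean of NES and NLS was −1.07 (edgeR adjusted p = 0.00757), with the effect positive in all 3 lines. For OSBPL10 the log2 effect in NLS minus that in NES was −0.84 (edgeR adjusted p = 0.000953), also with positive effects in all 3 lines. DESeq2 gave differences of −1.09 and −0.85 with adjusted p of 0.99995 and 0.393. Across all 17 alternatives the adjusted p ran from 0.000906 to 0.99995 for NDRG4 and from 5.20e-05 to 0.393 for OSBPL10.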

How the results depend on the processing

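The number of members depended on the rule's own thresholds, with 87 rows at 50% of the count minimum, 8 at 200% of it, 126 at a ratio of 1.5, 3 at a ratio of 3 and 19 to 32 when each library in turn was left out with the minimum unchanged. TMM-scaled totals gave 38 and a ratio of medians gave 37. In tests among lines, DESeq2 called 0 members in the joint test, 0 for G3BP1, 0 for NLS against NES and 2 for G3BP1 mock levels, and without the filter on low counts the last was 3. Leaving out 1 library gave 1 to 3, 0 to 2, 0 to 1 and 2 to 6 members in these tests, and 3 to 4 for NLS against NES mock levels. The median log2 fold change of members in NES was 1.37 with DESeq2 size factors, 1.32 with total counts and 1.37 to 1.46 leaving out 1 library, and that in G3BP1 was 1.22 with total counts. No value changed direction. Gene ends on the same strand, chosen after seeing the data like the 5 kb and 50 kb windows, gave 8 members. The cause of these shifts was not tested.

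Replicate numbers did not pair the libraries, since deviations of same-numbered libraries correlated with r of −0.0522 in NES, 0.0094 in G3BP1 and −0.0148 in NLS over 6390 rows. With the replicate block, 29 members were called on average, 2 in the joint test, 1 for G3BP1, 1 for NLS against NES, 6 and 4 in the mock comparisons, and the member medians were 1.35, 1.08 and 1.29. The differences were −1.07 for NDRG4 and −0.84 for OSBPL10 with the block. Depth limits the differences among lines: the least counted member had 241 counts over 6 mock libraries.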
